A study of Bos taurus with 10 samples.

Results

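The nuclear genes of mitochondrial respiratory complexes I, III and IV and of ATP synthase, also called complex V, were followed in the liver of lactating dairy cows. They were chosen by gene symbol alone: every gene whose only symbol in the platform table began with NDUFA, NDUFB, NDUFC, NDUFS, NDUFV, UQCR, COX4 to COX8 or ATP5, together with CYC1 and CYCS. This gave 81 genes of the 9155 with a named probe set, read by 106 of the 24016 probe sets tested, and each gene was taken at its probe set of highest mean over the 10 arrays. Of the 81 genes, 36 encode subunits of complex I, 9 of complex III, 13 of complex IV and 17 of complex V or its inhibitor, 2 belong to the NDUFA4 family that sits with complex IV, and 4 are assembly factors of complex I that the symbol rule brought in. A further 13 symbols under the rule, among them CYCS, COX6B1, COX7B and COX4I2, were not analysed here, and neither were the subunits encoded by mitochondrial DNA.

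Samples were liver biopsies of female Holstein cows in week 5 of lactation. Of 40 cows, 20 were fed conjugated linoleic acid (CLA), isomers of linoleic acid whose double bonds are conjugated, in a fat protected from breakdown in the rumen, and 20 were fed a control fat protected in the same way. In each group the fat was 27.3% of a supplementary concentrate, of which a cow received 630 g of dry matter daily, starting in week 3 ahead of calving and ending in week 14 of lactation. RNA of 4 cows was combined per pool, with 5 CLA pools and 5 control pools and 1 array each, so every value is an average over 4 cows and the error is the spread between pools.

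Complex I passes electrons from NADH to ubiquinone, complex III passes them from ubiquinol to cytochrome c, and complex IV passes them on to oxygen. All of these pump protons across the inner mitochondrial membrane, and complex V uses the resulting gradient to make ATP. In the liver of a cow in early lactation this chain takes up the reducing equivalents that fatty acid oxidation releases. A few core subunits of the complexes come from mitochondrial DNA, and all others are nuclear genes such as those described here.

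No gene of the 4 complexes passed the test for a difference between CLA and control pools. In limma with Benjamini-Hochberg adjustment over all 24016 probe sets, the lowest adjusted p among the 81 genes was 0.498, and 0 of all probe sets had an adjusted p under 0.05. At an unadjusted p under 0.05, 1 gene was counted, NDUFA4L2, which was higher in CLA pools, and 0 were lower. Of all genes 8.5% were counted in either direction, 4.35% as higher and 4.15% as lower. Of the 2289 genes of the brightest 25%, 152 were counted as higher and 19 as lower. In such biopsies, fewer cells of a type and less RNA per cell cannot be told apart. The differences, given throughout as CLA minus control on the log2 scale, ran from -0.12 to 0.21 and had a median of 0.028, beside a median of -0.010 over all genes and 0.020 over the brightest 25% of genes. Of the 81 genes, 53 were above 0 and 28 below, where 46% of all genes and 1335 of the 2289 brightest were above 0. The 81 genes were bright, with a median signal of 10.43 against 7.23 over all genes.

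The confidence intervals of these small differences were narrow for most genes. The 95% confidence interval of the difference lay within 1.3-fold in either direction for 80 of the 81 genes, and within 1.5-fold for all 81. It lay within 1.3-fold for 6939 of all 9155 genes and 1899 of the 2289 brightest. The exception among the 81 at 1.3-fold was NDUFB5, whose interval ran from -0.0011 to 0.42. At the 25 further probe sets of these genes, 17 intervals lay within 1.3-fold. These intervals are per gene and not adjusted for their number. They are not independent either, as movement shared by all members of a pool made up 50.3% of the sum of squares within groups. The balance of directions rested on the scaling: 53 genes were above 0 in the deposited values, 36 after quantile normalization, 38 after cyclic loess normalization and 67 after subtraction of array medians. The shares of all genes above 0 were 46%, 45.3%, 47% and 57.9% in the same order, and subtraction of medians moves all genes of an array alike.

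**Figure D1:**
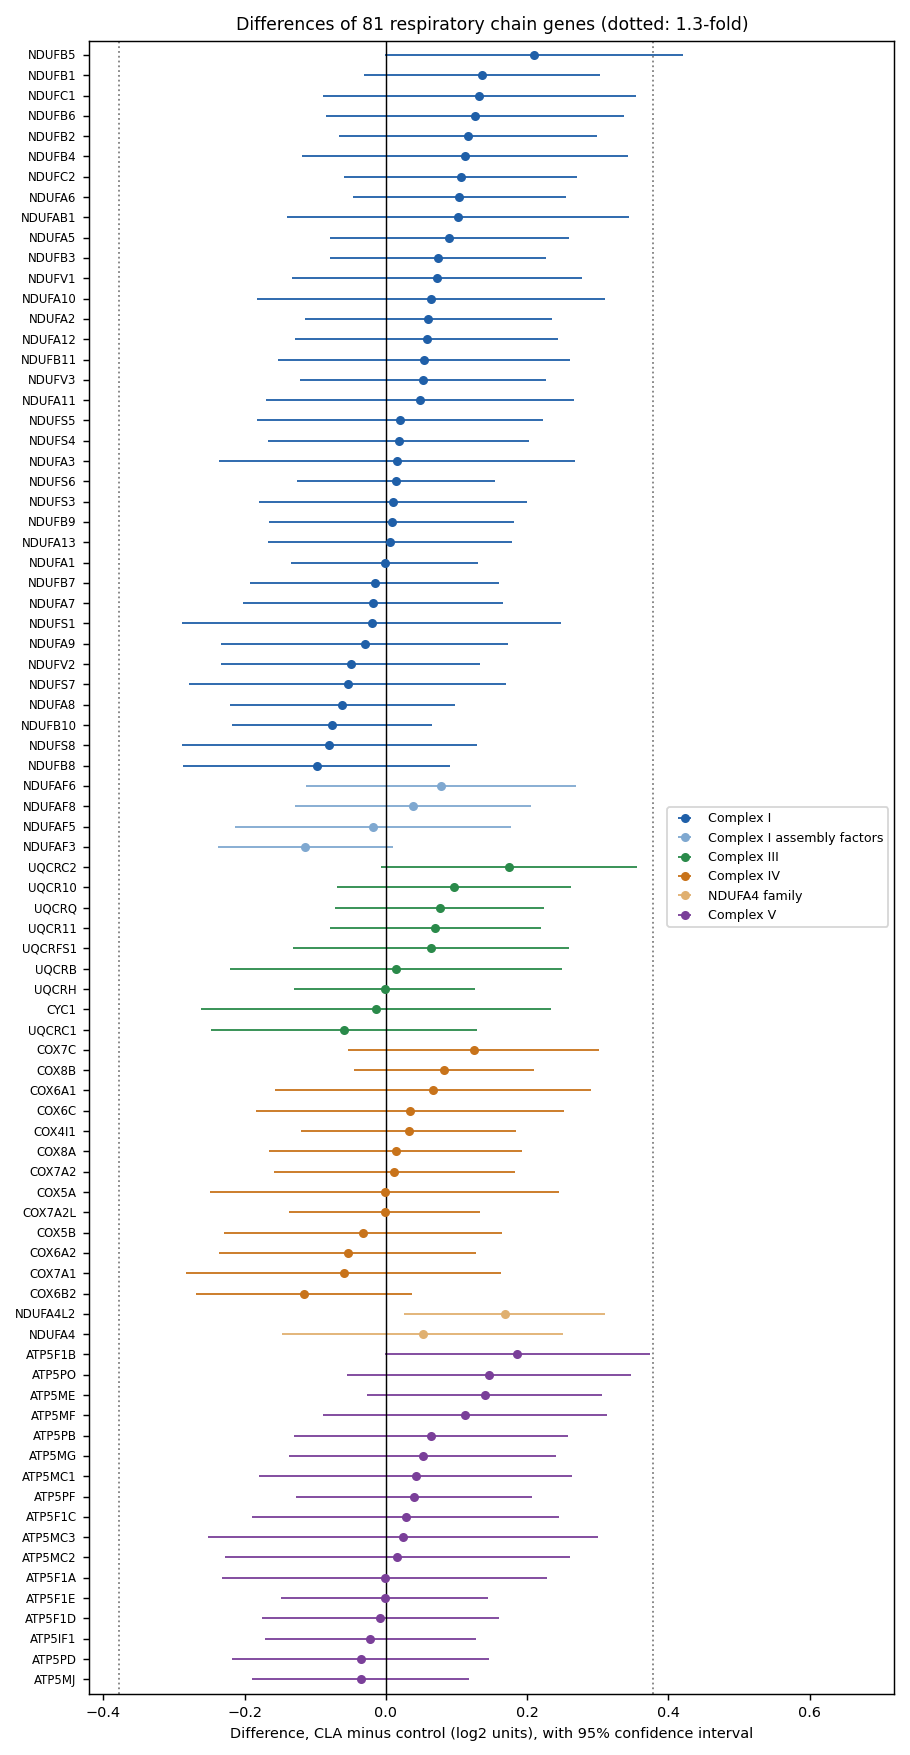
Difference in signal, CLA minus control pools (x axis, log2 units), for each of the 81 genes (y axis), grouped by complex. Points are differences, bars are 95% confidence intervals from limma (n = 5 pools per group) and dotted lines mark 1.3-fold. The intervals of 80 genes stay between the dotted lines, and only that of NDUFB5 crosses the right one.

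Complex I had 25 of 36 subunits above 0 and 11 below, with a median of 0.034 and a range from -0.098 to 0.21. None was counted at an unadjusted p under 0.05 and none had groups that did not overlap. In the distal membrane arm, the outermost proton-pumping part, 9 of 12 subunits were above 0 with a median of 0.088. In the proximal membrane arm 7 of 9 were above 0 (median 0.020), in the dehydrogenase module, which takes electrons from NADH, 7 of 10 (median 0.035), and in the quinone module 2 of 5 (median -0.030). Differences between these parts were not tested.

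NDUFB5, an accessory subunit of the distal membrane arm, had the highest difference of the 81 genes. It read 9.29, 9.54, 9.31, 9.19 and 8.99 in CLA pools 1 to 5, against 9.07, 9.21, 9.04, 8.98 and 8.97 in control pools 1 to 5 (log2 signal). CLA pools 1, 2 and 3 lay above every control pool, and CLA pools 4 and 5 lay among them. The difference was 0.21 ± 0.097 SE (adjusted p = 0.562), 0.28 without CLA pool 5 and 0.14 without CLA pool 2.

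Other subunits of the distal arm spread to both sides. NDUFB1 differed by 0.14 ± 0.077 SE, NDUFB6 by 0.13 ± 0.097 SE and NDUFB2 by 0.12 ± 0.084 SE. The other probe set of NDUFB2 differed by -0.062 ± 0.082 SE, and that of NDUFB1, a dim one, by -0.080 ± 0.10 SE. NDUFAB1, the mitochondrial acyl carrier protein, which also serves lipoic acid and iron-sulphur cluster synthesis, differed by 0.10 ± 0.11 SE and ranged over 0.68 log2 units within the CLA pools. NDUFB8, a membrane arm subunit much used as a protein marker of assembled complex I, had the lowest difference of the complex. It read 10.80, 10.88, 10.80, 10.67 and 10.59 in CLA pools 1 to 5, against 10.78, 10.95, 10.74, 11.05 and 10.71 in control pools 1 to 5, and the groups overlapped (difference -0.098 ± 0.087 SE).

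Core subunits of the matrix arm spread to both sides of 0. NDUFV1, which binds NADH and the flavin cofactor, differed by 0.072 ± 0.094 SE, and NDUFV2, its iron-sulphur partner, by -0.050 ± 0.084 SE. NDUFS1, with the longest run of iron-sulphur clusters, differed by -0.020 ± 0.12 SE, and NDUFS3, part of the quinone module, by 0.010 ± 0.087 SE. NDUFS7 and NDUFS8, which hold the clusters next to the quinone site, differed by -0.054 ± 0.10 SE and -0.080 ± 0.096 SE. Each of these intervals included 0, and the lowest bound among them was -0.29 (NDUFS8).

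Of the 4 assembly factors of complex I, NDUFAF3, which acts early in building the quinone module, was the one with separate groups. NDUFAF3 read 9.46, 9.44, 9.37, 9.46 and 9.49 in CLA pools 1 to 5, against 9.54, 9.57, 9.55, 9.55 and 9.58 in control pools 1 to 5. Every CLA pool lay below every control pool, and the control pools spanned only 0.04 log2 units. The difference was -0.11 ± 0.057 SE (adjusted p = 0.585), and the other probe sets of the gene differed by -0.12 ± 0.12 SE and -0.18 ± 0.10 SE. Separate groups with lower CLA pools were found for 0.699% of all genes, for 3 of the 2289 brightest and for this 1 gene of the 81.

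The remaining assembly factors had overlapping groups. NDUFAF6, needed for early complex I assembly, differed by 0.078 ± 0.088 SE. NDUFAF5, which hydroxylates an arginine of NDUFS7, differed by -0.018 ± 0.090 SE at the brighter of its probe sets and by 0.29 ± 0.14 SE at the dimmer. NDUFAF8, a partner of NDUFAF5, differed by 0.038 ± 0.077 SE.

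Complex III had 6 of 9 subunits above 0 and 3 below, with a median of 0.064 and none counted at an unadjusted p under 0.05. UQCRC2, a core protein of the matrix side, had its highest difference. It read 9.91, 10.09, 9.91, 9.79 and 9.77 in CLA pools 1 to 5, against 9.60, 9.82, 9.63, 9.87 and 9.68 in control pools 1 to 5. The groups overlapped through control pools 2 and 4. The difference was 0.17 ± 0.083 SE (adjusted p = 0.572) at this probe set and -0.14 ± 0.091 SE at the other, and the mean of both differed by 0.017.

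UQCRC1, the other core protein, had the lowest difference of the complex (-0.060 ± 0.087 SE). The electron-carrying subunits were UQCRFS1, the Rieske iron-sulphur protein, at 0.064 ± 0.090 SE, and CYC1, cytochrome c1, at -0.014 ± 0.11 SE. CYC1 read 10, 10.42, 9.89, 9.92 and 9.71 in CLA pools 1 to 5, against 9.97, 10.06, 9.91, 10.11 and 9.96 in control pools 1 to 5. CLA pool 2 was the highest and CLA pool 5 the lowest of the 10, so the CLA pools spanned 0.71 log2 units where the control pools spanned 0.20. The small subunits UQCRB, UQCRH, UQCRQ, UQCR10 and UQCR11 differed by -0.0020 to 0.096, with UQCR10 highest and UQCRH, the hinge protein, lowest.

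Complex IV had 7 of 13 subunits above 0 and 6 below, with a median of 0.012, and none was counted at an unadjusted p under 0.05. COX7C, a small structural subunit, had the highest difference, 0.12 ± 0.082 SE, and read 12.29, 12.28, 12.06, 12.06 and 11.97 in CLA pools 1 to 5, against 12.08, 11.98, 11.95, 12.12 and 11.91 in control pools 1 to 5. CLA pools 1 and 2 were above every control pool and the other CLA pools were among them. COX6B2, known from human and mouse as the testis isoform of subunit 6B, had the lowest, -0.12 ± 0.071 SE, and read 6.09, 5.94, 5.78, 6.01 and 5.96 in CLA pools 1 to 5, against 6.10, 5.99, 6.06, 6.10 and 6.11 in control pools 1 to 5.

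Several subunits of complex IV exist as a ubiquitous or liver-type form and a heart and muscle form. Of the ubiquitous or liver-type forms, COX4I1 differed by 0.032 ± 0.070 SE, COX6A1 by 0.066 ± 0.10 SE, COX7A2 by 0.012 ± 0.079 SE and COX8A by 0.014 ± 0.082 SE. The probe set of COX6A1 is of a type that can also read related transcripts. COX7A2L, a related protein that joins complexes III and IV in supercomplexes, differed by -0.0020 ± 0.062 SE, the difference nearest 0 in the complex beside that of COX5A.

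Of the heart and muscle forms, COX6A2 differed by -0.054 ± 0.084 SE and COX7A1 by -0.060 ± 0.10 SE. COX8B, the form of subunit 8 found in heart and skeletal muscle, had separate groups. It read 9.84, 9.80, 9.84, 9.80 and 9.85 in CLA pools 1 to 5, against 9.74, 9.65, 9.79, 9.75 and 9.79 in control pools 1 to 5. Every CLA pool lay above every control pool, by as little as 0.01 log2 units at the nearest pair. The difference was 0.082 ± 0.059 SE (adjusted p = 0.725), 0.038 after quantile normalization, and 0.030 ± 0.12 SE at the other probe set. The mean signal over the 10 arrays was 9.785 at the brighter set and 6.605 at the other. Whether the brighter set reads the muscle form in liver was not tested.

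Skeletal muscle markers were looked at beside these forms. Their mean over 11 genes ran from 4.86 to 5.28 in CLA pools and from 5.00 to 5.67 in control pools, with control pool 1 highest, where the muscle myosin light chain MYL2 read 5.44 against 3.28 to 3.67 in the other control pools. In that pool COX6A2 read 4.13 and COX8B 9.74, both within the range of the other control pools, as was COX7A1 at 7.67. COX6A2 lay among the dimmest 30% of probe sets, and the values used here carry no detection call.

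NDUFA4, long counted in complex I and now known as a subunit of complex IV, differed by 0.052 ± 0.091 SE. Its relative NDUFA4L2, a gene induced by hypoxia in human and mouse cells, was the 1 gene of the 81 at an unadjusted p under 0.05. NDUFA4L2 read 5.28, 5.31, 5.28, 5.30 and 5.46 in CLA pools 1 to 5, against 5.14, 5.23, 5.2, 5.06 and 5.16 in control pools 1 to 5. Every CLA pool lay above every control pool, as for COX8B. Separate groups with higher CLA pools were found for 1.47% of all genes and 70 of the 2289 brightest, among which COX8B falls by its signal. The difference was 0.17 ± 0.065 SE (adjusted p = 0.498) at a low signal. The other probe set differed by -0.060 ± 0.14 SE, and the mean of both by 0.054. Its unadjusted p was over 0.05 without CLA pool 5 (difference 0.13), without control pool 4 (0.14), without CLA pool 2 and control pool 4 together (0.15), with trend and robust options of eBayes, and for the mean of both sets.

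**Figure D2:**
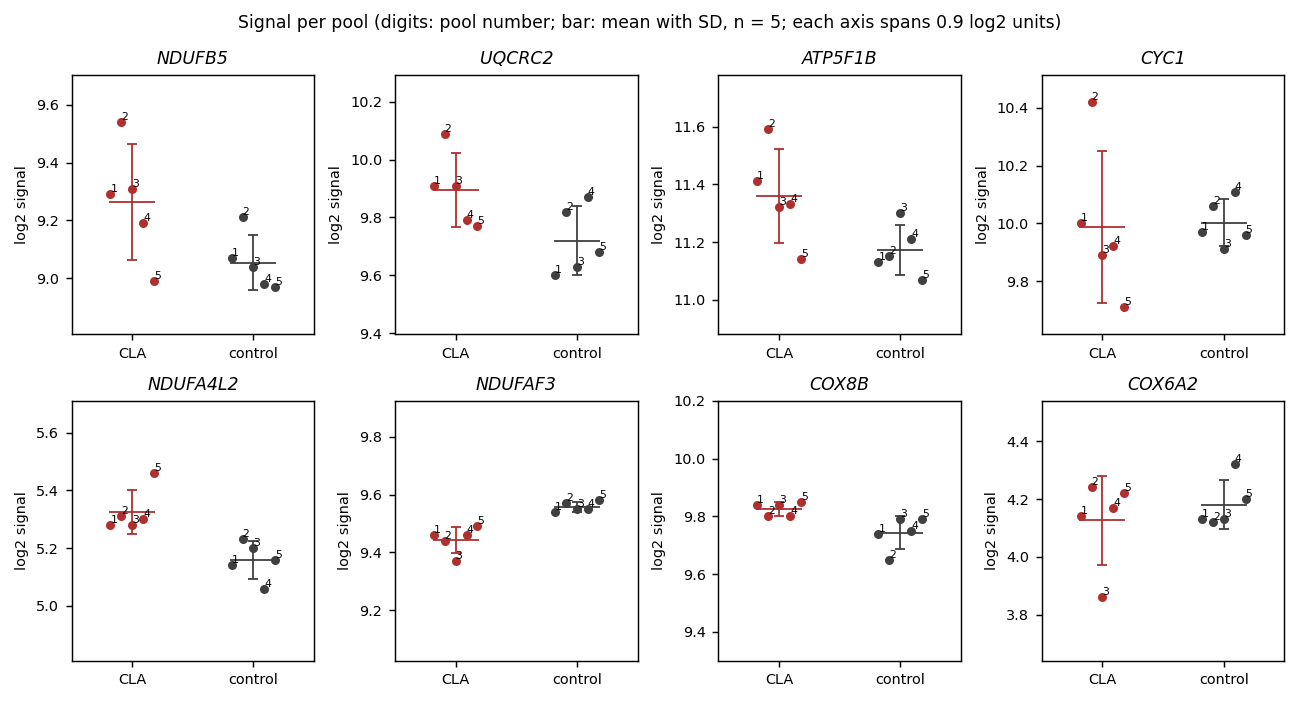
Log2 signal (y axis) in CLA and control pools (x axis) for 8 genes. Points are pools, numbered 1 to 5, bars are the mean with its SD (n = 5), and every axis spans 0.9 log2 units. NDUFA4L2, NDUFAF3 and COX8B have separate groups, while NDUFB5, UQCRC2, ATP5F1B, CYC1 and COX6A2 overlap, and CYC1 has CLA pool 2 at 10.42 and CLA pool 5 at 9.71.

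Complex V had 11 of 17 genes above 0 and 6 below, with a median of 0.028 and none counted at an unadjusted p under 0.05. In the catalytic F1 head, ATP5F1B, the beta subunit that carries the catalytic sites, had the highest difference. It read 11.41, 11.59, 11.32, 11.33 and 11.14 in CLA pools 1 to 5, against 11.13, 11.15, 11.30, 11.21 and 11.07 in control pools 1 to 5. CLA pools 1 to 4 lay above every control pool, and CLA pool 5 lay among them. The difference was 0.19 ± 0.086 SE (adjusted p = 0.563) at this probe set and -0.15 ± 0.12 SE at the other, a dim one, and the mean of both differed by 0.016.

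The other genes of the F1 head differed by less. ATP5F1A, the alpha subunit, differed by -0.0020 ± 0.11 SE, ATP5F1C, the gamma subunit of the central stalk, by 0.028 ± 0.10 SE, and ATP5F1D and ATP5F1E by -0.0080 ± 0.077 SE and -0.0020 ± 0.067 SE. In the peripheral stalk, which holds the head in place, ATP5PO differed by 0.15 ± 0.092 SE, ATP5PB by 0.064 ± 0.089 SE and ATP5PF by 0.040 ± 0.077 SE, while ATP5PD had the lowest difference (-0.036 ± 0.084 SE) together with ATP5MJ.

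ATP5MC1, ATP5MC2 and ATP5MC3, the 3 genes that encode the same mature subunit c of the rotor ring, differed by 0.042, 0.016 and 0.024. Among small membrane subunits, ATP5ME differed by 0.14 ± 0.077 SE, ATP5MF by 0.11 ± 0.092 SE and ATP5MG by 0.052 ± 0.087 SE. ATP5IF1, the inhibitor that blocks ATP hydrolysis when the gradient collapses, read 11.76, 11.88, 11.76, 11.63 and 11.65 in CLA pools 1 to 5, against 11.69, 11.80, 11.74, 11.83 and 11.73 in control pools 1 to 5. The groups overlapped, and the difference was -0.022 ± 0.069 SE.

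The spread between pools of the same diet was wider than the difference between diets. Deviations from the control mean, taken as medians per complex, had the same sign in all 4 complexes in 4 CLA pools (1, 2, 4 and 5). The same held in control pools 3, 4 and 5, and CLA pool 4 stood at only 0.001 to 0.01. For each pool the median deviation of the 81 genes from the control mean was taken. It was 0.11, 0.20, 0.00, 0.0080 and -0.12 in CLA pools 1 to 5, against -0.014, 0.012, -0.030, 0.096 and -0.068 in control pools 1 to 5. CLA pool 2 was the highest and CLA pool 5 the lowest of the 10 pools, with all control pools between them. The mean of the pool values differed by 0.040, where their SD was 0.12 in CLA pools and 0.061 in control pools (n = 5 each).

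CLA pool 2 was also the highest and CLA pool 5 the lowest within each complex. CLA pool 2 stood at 0.19 in complex I, 0.24 in complex III, 0.22 in complex IV and 0.26 in complex V, and CLA pool 5 at -0.15, -0.078, -0.12 and -0.16 in the same order of complexes. CLA pool 2 was the highest of all 10 pools for 45 of the 81 genes (55.6%), against 29.6% of the brightest 25% of genes and 23.0% of all genes. CLA pool 5 was the lowest for 41 genes (50.6%), against 15.3% of the brightest 25% and 10.4% of all genes. These pools were the extremes of the same genes, so counts between them describe that choice. All 36 complex I subunits read higher in CLA pool 2 than in CLA pool 5, as did all 9 of complex III, all 17 of complex V and 11 of 13 of complex IV, where 59.1% of all genes and 63.7% of the brightest 25% did.

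**Figure D3:**
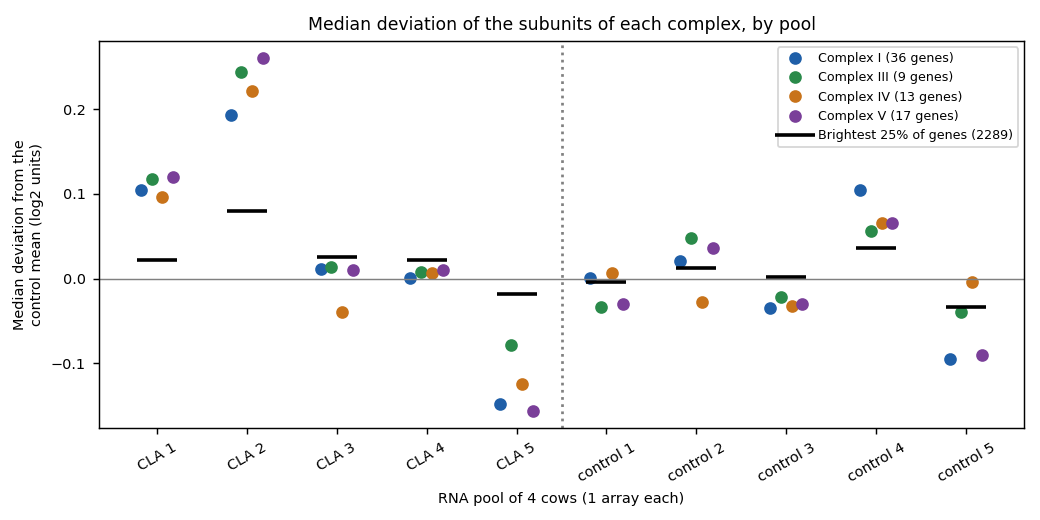
Median deviation of the subunits of complexes I, III, IV and V from the control mean (y axis, log2 units) in each pool (x axis), with the brightest 25% of all genes as black bars. The complexes run from 0.19 to 0.26 in CLA pool 2 and from -0.16 to -0.078 in CLA pool 5, where the brightest 25% of genes stands at 0.080 and -0.018.

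The gap within the CLA pools was widest for ATP5MC3 (0.78 log2 units between CLA pools 2 and 5), CYC1 (0.71), NDUFAB1 (0.68) and COX5A (0.64). The genes that read lower in CLA pool 2 than in CLA pool 5 were NDUFA4L2, COX8B, NDUFAF3 and COX6B2, at -0.15 to -0.02. The gap was close to 0 for NDUFB10 (0.01) and for NDUFV1, ATP5F1D and COX6A2 (0.02 each). The SD over the 5 pools was larger among CLA than among control pools for 66 of the 81 genes (81.5%), with a median of 0.14 in CLA pools and 0.094 in control pools, where 44.7% of all genes had the larger SD among CLA pools.

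Movement shared by all members of a pool made up 50.3% of the sum of squares within groups over the 81 genes, and 57.1% in complex I, 59.6% in complex III, 47.8% in complex IV and 57.3% in complex V. The same share was 2.54% over the 2289 genes of the brightest 25%. These shares describe the arrays and were not tested, and a share over few genes is larger by construction.

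The array of CLA pool 2 had the widest spread of values, an SD of 2.43 log2 units, against 2.38 to 2.41 for the other CLA pools and 2.34 to 2.39 for the control pools, and the brightest 25% of genes stood at 0.080 there. CLA pool 5 had the lowest SD of the CLA pools (2.38) and the lowest median of the 81 genes (-0.12). CLA pool 1 had an SD of 2.40 at a median of 0.11, and CLA pool 3 one of 2.41 at 0.00. Control pool 5 had the lowest SD of all arrays (2.34) at a median of -0.068, and control pool 4 one of 2.38 at 0.096. A relation between array spread and these medians was not tested. The array of CLA pool 2 also had the lowest mean correlation with the others (0.990), next to control pool 4 (0.991). After quantile normalization, which gives all arrays the same spread, the median deviation was 0.14 in CLA pool 2 and -0.12 in CLA pool 5, and CLA pool 2 was highest for 37 genes and CLA pool 5 lowest for 45. After cyclic loess normalization the values were 0.13 and -0.13, with 37 and 42 genes. Under quantile and cyclic loess normalization, CLA pool 2 was highest for 20.5% and 19.0% of all genes, and CLA pool 5 lowest for 9.87% and 10.6%. Of the brightest 25% these shares were 21.2% and 20.8%, and 14.3% and 14.5%. The shared movement of the 81 genes then made up 40.2% and 39.9% of the variation within groups. Over the brightest 25% it made up 0.12% and 0.21%, though a share over few genes is larger by construction.

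**Figure D4:**
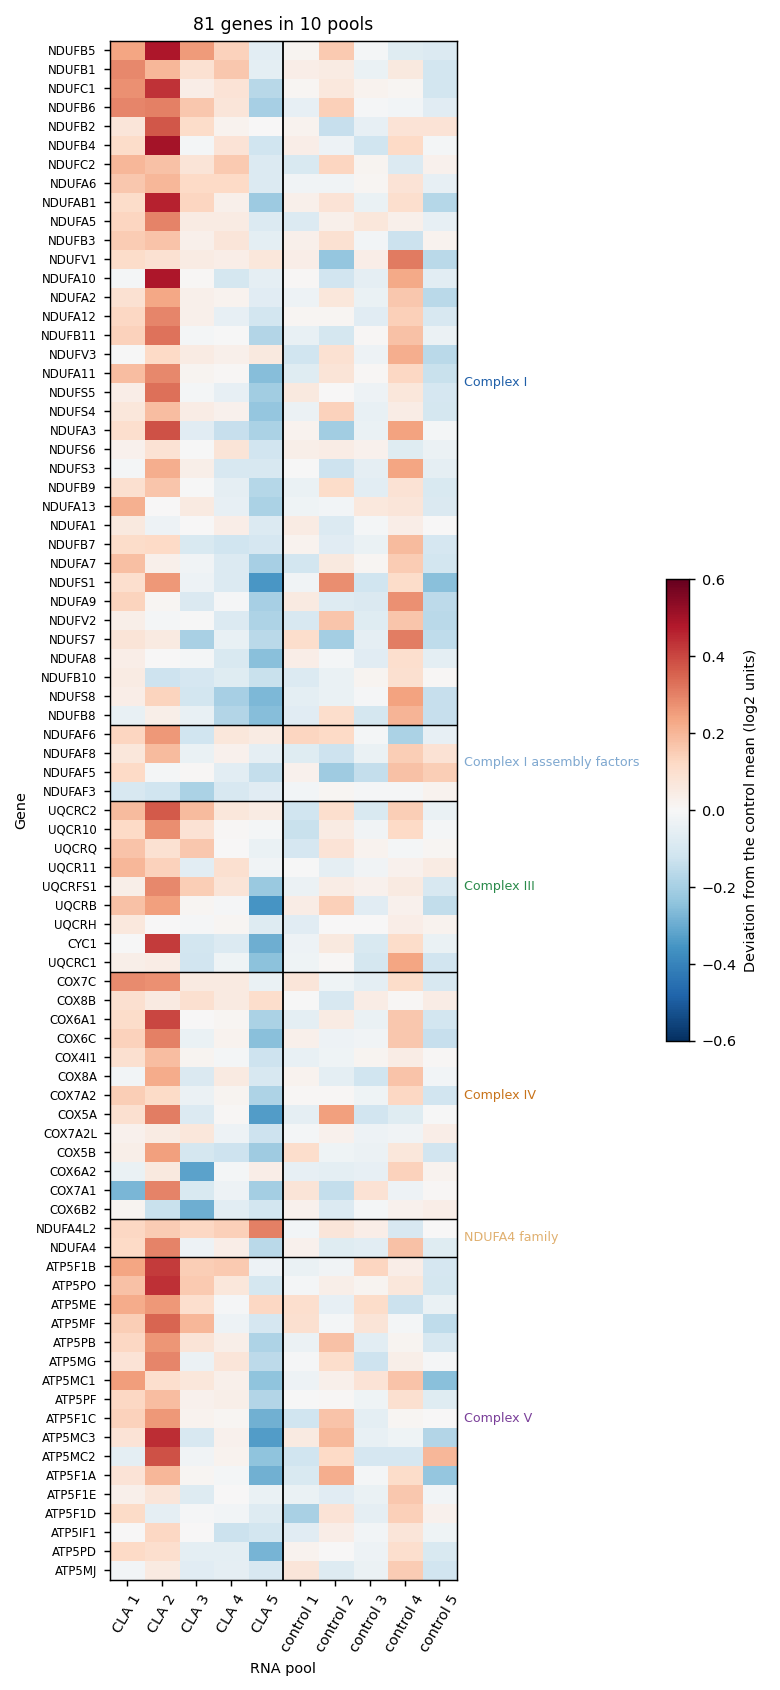
Deviation of each of the 81 genes (rows, by complex) from its control mean in the 10 pools (columns), in log2 units, red above and blue below. The column of CLA pool 2 is red and that of CLA pool 5 blue through most of complexes I, III, IV and V. NDUFA4L2, COX8B, NDUFAF3 and COX6B2 read lower in CLA pool 2 than in CLA pool 5, and other genes such as NDUFB10 and NDUFV1 also break the pattern.

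The diet comparison turned on these pools. Without CLA pool 2 the median difference of the 81 genes was -0.012, 34 genes were above 0, where 41.4% of all genes were, and 1 had an unadjusted p under 0.05, where 8.91% of all genes had. Without CLA pool 5 it was 0.080 and 68 genes were above 0, where 48.2% of all genes were, and 8 genes had an unadjusted p under 0.05, all higher in CLA pools: NDUFA6, NDUFB1, NDUFB5, NDUFB6, NDUFC1, UQCRC2, ATP5F1B and ATP5PO. In that fit 9.14% of all genes were counted, 4.69% as higher, and the lowest adjusted p of the 81 was 0.453. Quantile and cyclic loess normalization gave medians of -0.0097 and -0.0080 with all pools.

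Of the 81 genes, 22 had more than 1 probe set, 25 further sets in all. For 12 of the 22 genes all sets had the same sign of difference. Of the 25 further sets, 10 were above 0 and 15 below, with a median of -0.060, where the brightest sets had a median of 0.028. The further sets were mostly dimmer, with a median signal of 5.48 against 10.43. The sets of UQCRC2, ATP5F1B and NDUFAF5 had opposite signs and lay 0.3 or more apart. NDUFA5, of the quinone module, differed by 0.090 ± 0.077 SE at its brightest set and by 0.30 ± 0.10 SE at another (adjusted p = 0.434), and COX6C by 0.034 ± 0.10 SE and, at a dim set, -0.20 ± 0.087 SE. Those further sets of NDUFA5 and COX6C were the 2 of 25 at an unadjusted p under 0.05, where 8.89% of all probe sets were, 4.01% as higher and 4.88% as lower.

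**Figure D5:**
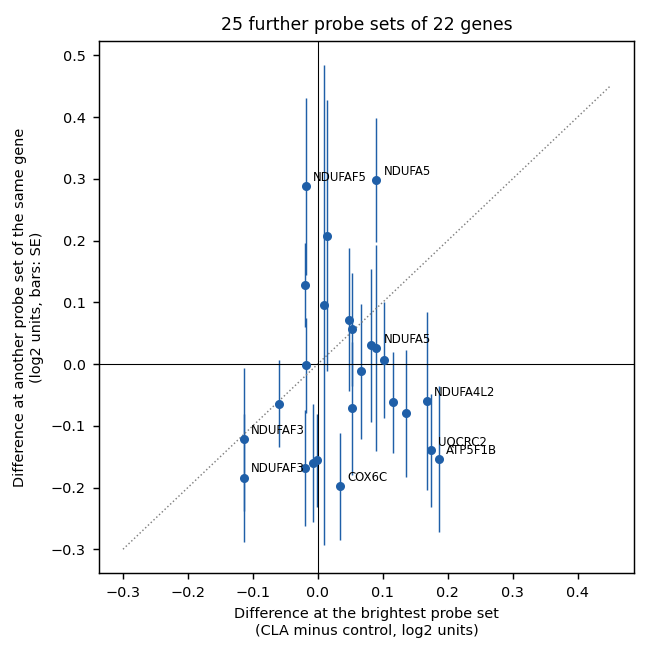
Difference at a further probe set (y axis, log2 units, bars are SE) against that at the brightest set of the same gene (x axis) for 25 sets of 22 genes. The dotted line marks equal values, from which UQCRC2 and ATP5F1B at the right lie far below and NDUFA5 and NDUFAF5 far above.

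Other genes of the pathway had no adjusted p under 0.05 either. Of 26 measured assembly factors outside the symbol rule, 18 were above 0 and 0 had an unadjusted p under 0.05, with a median of 0.041. Their lowest p belonged to COX10, which makes heme O for complex IV (-0.14 ± 0.065 SE, adjusted p = 0.568). In complex II, 3 of 4 subunits were above 0, and 1, the membrane anchor SDHD, was at an unadjusted p under 0.05 (as were 8.5% of all genes), at 0.21 ± 0.072 SE.

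Among 11 regulators of mitochondrial biogenesis and mitochondrial DNA, 2 were at an unadjusted p under 0.05, both higher, beside 4.35% of all genes. TFB1M, a methyltransferase of mitochondrial ribosomal RNA, read 8.72, 8.69, 8.91, 8.44 and 8.69 in CLA pools 1 to 5, against 8.06, 8.30, 8.58, 8.11 and 8.27 in control pools 1 to 5. CLA pool 4 alone lay within the control range (difference 0.43 ± 0.11 SE, adjusted p = 0.347). YY1, a transcription factor that acts on many respiratory genes, differed by 0.17 ± 0.064 SE, while the coactivator PPARGC1A differed by 0.020 ± 0.093 SE and NRF1, a regulator of respiratory chain promoters, by -0.046 ± 0.11 SE.

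Of 16 genes for other electron entry, carriers and uncoupling, 2 were at an unadjusted p under 0.05, both higher, again beside 4.35% of all genes. NNT, the proton-driven transhydrogenase that makes NADPH, differed by 0.30 ± 0.11 SE (adjusted p = 0.455), with CLA pool 2 at 10.69 lowest of the CLA pools. ETFB, which hands electrons from fatty acid oxidation towards ubiquinone, differed by 0.19 ± 0.074 SE. The adenine nucleotide translocators SLC25A4, SLC25A5 and SLC25A6 differed by 0.074, 0.090 and -0.072, and the phosphate carrier SLC25A3 by 0.00.

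Markers of liver cell types were read on the same arrays. The mean of 11 hepatocyte markers ran from 12.97 to 13.12 in CLA pools and from 12.92 to 13.07 in control pools. CLA pool 2 was the lowest of the CLA pools there, while CLA pool 5 stood at 12.995. That place of CLA pool 2 rested on TAT, which read 8.08, 6.48, 7.47, 7.34 and 6.96 in CLA pools 1 to 5. Without TAT, CLA pool 2 was not the lowest. Of the hepatocyte markers 8 were above 0, with FGB, the fibrinogen beta chain, at 0.21 ± 0.14 SE. Markers of T and NK lymphocytes were below 0 for 12 of 13, with ZAP70 at -0.44 ± 0.11 SE, and ran from 6.07 to 6.30 in CLA pools and from 6.17 to 6.56 in control pools. Markers of macrophages were below 0 for 7 of 8 and at 0.00 for 1 (CD68 at -0.23 ± 0.14 SE), of muscle for 9 of 11 (MYL2 at -0.65 ± 0.34 SE, and at -0.26 ± 0.14 SE without control pool 1) and of erythroid cells for 6 of 7 (HBA at -0.24 ± 0.076 SE). Endothelial markers were below 0 for 6 of 10 (EMCN at 0.25 ± 0.088 SE), stellate cell markers for 3 of 10 (LRAT at 0.22 ± 0.087 SE) and cholangiocyte markers for 2 of 5 (KRT19 at 0.19 ± 0.13 SE). Of all genes, 4873 of 9155 were below 0. Markers of muscle and erythroid cells were mostly dim, with median signals of 4.35 and 3.91 against 7.23 over all genes. The part of these markers in the values of the 81 genes was not tested.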

How the data were processed

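Liver RNA was measured on Affymetrix GeneChip Bovine Genome arrays, 1 per pool of 4 cows. The deposited table held log2 values per probe set, normalized by the authors. RMA and Affymetrix Expression Console 1.1 were used per the submitters' processing notes, which give no settings. These values were used as deposited.

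Of 24128 probe sets, 112 manufacturer controls were left out. Genes were named through the platform table, and 106 of 106 member probe sets carried the symbol that the RefSeq table of assembly ARS-UCD2.0 gives their gene identifier. Groups came from the sample titles. The difference, CLA minus control, came from a linear model per probe set on 10 arrays without covariates (limma 3.58.1, lmFit and eBayes, R 4.3.3), with Benjamini-Hochberg adjustment over 24016 probe sets, and was tested on simulated data. The labels do not give which cows formed a pool. Precision is limited by having 5 arrays per group.

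Genes named with values were those at an unadjusted p under 0.05 or with separate groups, the extremes of each complex, genes whose probe sets disagreed, isoform pairs, CYC1, NDUFA4, NDUFAB1, ATP5IF1 and the gene of smallest p per list. Others were named by role after their values were seen. Members and lists were chosen with earlier results of these data known. Alternatives were single pools left out, the pool number as a block, other normalizations, filters and variance models. Pool medians after normalization, and MYL2 without control pool 1, were added after seeing the data. Sequences were not used here.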

Additional observations from a re-analysis of the deposited data

Results flagged for a closer look

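For genes named in the report, pools that stood far from the others of their group by Dixon's test included those below. This test of the gap to the nearest value flags about 1 in 20 groups by chance. The list may not be complete, and the number of groups tested is not stated. NDUFA4L2 in CLA pool 5 read 5.46, above the 5.28 to 5.31 of the other CLA pools, and its difference was 0.13 without that pool. COX6A2 in CLA pool 3 read 3.86, below the 4.14 to 4.24 of the other CLA pools. MYL2 in control pool 1 read 5.44, above the 3.28 to 3.67 of the other control pools. ATP5F1E in control pool 4 read 11.69, above the 11.46 to 11.51 of the other control pools.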

How the results depend on the processing

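No probe set passed the adjusted test when any single pool was left out or under the other alternatives, except that 1 did without CLA pool 2 and control pool 4 together, and 1 to 8 of the 81 genes had an unadjusted p under 0.05 with single pools left out (8 without CLA pool 5). That count was 2 with the pool number as a block, after quantile or cyclic loess normalization, with array weights and with the mean of all probe sets of a gene, 3 with the unmoderated test and with trend and robust options, 5 after subtraction of array medians and 0 without CLA pool 2 and control pool 4 together. The lowest adjusted p of the 81 ran from 0.296 (unmoderated test) to 0.719. The median difference of complex III was above 0 in all 20 alternatives (0.0085 to 0.11), while those of complexes I (-0.0078 to 0.075), IV (-0.033 to 0.061) and V (-0.0097 to 0.10) were below 0 without CLA pool 2 and after quantile normalization, that of complex V also after cyclic loess normalization and that of complex IV under 5 further alternatives. Same-numbered pools did not deviate together (correlations of -0.086 to 0.093, and 0 of 5 CLA pools closest to the control pool of their number), so the numbers were not taken as pairs. Signal over background was not given for dim sets such as those of COX6A2 and NDUFA4L2.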
